A study of Schizosaccharomyces pombe with 9 samples.

Results

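A group of 53 fission yeast genes, of 4915 in the count table, had less polyadenylated RNA in both of the tested genotypes, clr4oe and K587A, than in the TetR-Mit1 strain they were set against. The members were chosen from these same values. Counts were scaled to each library's total (CPM), genes averaging at least 5 CPM were kept (4818 genes), and the log2 ratio of the group means was taken for clr4oe over TetR-Mit1 and for K587A over TetR-Mit1. The median over all kept genes was subtracted from each ratio, and a gene entered when both ratios were -0.4 or lower. This held for 74 genes. Of these, 21 with identifiers from 17 listed clone prefixes were dropped (12 on chromosome I, 8 on II and 1 on III), which left 53, all of them among the 4887 genes tested below.

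The samples are Schizosaccharomyces pombe cultures in log phase in YEA medium at 32 °C. All 3 genotypes carry TetR-Mit1, in which the chromatin remodeler Mit1 is joined to the Tet repressor. The clr4oe strain (tetrmit1_clr4oe, 2 libraries) adds a modification labelled clr4oe, the K587A strain (tetrmit1k587a, 3 libraries) carries Mit1 with the substitution K587A in that fusion, and the strain they are compared with has TetR-Mit1 alone (tetrmit1, 3 libraries). Each genotype is a single numbered strain, so strain and genotype cannot be told apart. The labels name neither the promoter behind clr4oe nor separate cultures for the replicates, so p-values measure the spread between these libraries, which may be technical. Another clr4oe library was not analysed here.

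Mit1 is the ATP-dependent remodeling subunit of SHREC, a silencing complex that also holds the histone deacetylase Clr3. Clr4 is the methyltransferase that places methyl groups on lysine 9 of histone H3, the mark of fission yeast heterochromatin. Beyond centromeres, telomeres and the mating-type locus, the mark is found at small islands that include meiotic genes such as mei4 and ssm4. These are transcribed in vegetative cells, and their RNA is bound by Mmi1 and degraded.

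The levels of clr4 and mit1 were read beside the genotype labels. Counts per gene cannot show the K587A substitution itself, so that label was not checked. Apart from the ratios of the rule, all CPM given here are scaled by the trimmed mean of M-values (TMM). The gene clr4 had 284 and 273 CPM in clr4oe, 55.5, 60.4 and 58.4 CPM in K587A and 53.7, 53.9 and 60.9 CPM in TetR-Mit1, so both clr4oe libraries stood above all others. For mit1 the values were 344 and 357 CPM in clr4oe, 532, 520.5 and 549 CPM in K587A and 387, 392 and 379 CPM in TetR-Mit1, which puts K587A above TetR-Mit1 and clr4oe below it. Totals ran from 13838210 to 14401186 counts in clr4oe, from 10367168 to 15920802 in K587A and from 13086567 to 14181298 in TetR-Mit1. Libraries of a group differed by more than counting error, with chi-square over its degrees of freedom at 2.75 to 6.08 in the 7 pairs, where resequencing of 1 library would give about 1.

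In the 53 members, the level left was a median of 59.8% of the TetR-Mit1 mean in clr4oe (range 23.8% to 75.3%) and 64.7% in K587A (range 19.9% to 74.8%). Summed over all members the level was 4768 and 5005 CPM in the clr4oe libraries, 4526 to 4689 CPM in the K587A libraries and 8368 to 8490 CPM in the TetR-Mit1 libraries. Every clr4oe and K587A library was below every TetR-Mit1 library in each of the 53 genes. The members were chosen on these values, so that separation is a description, and its share over all genes was not computed. In bulk RNA, fewer cells expressing a gene and less RNA per cell cannot be told apart. All 53 were also called lower in both comparisons by edgeR's quasi-likelihood test, where 7.12% of all tested genes were (65.1% of all genes were called in either direction in clr4oe and 52.3% in K587A), but the members were chosen on these contrasts and the comparisons share the TetR-Mit1 libraries, so nothing is read from that count. The smallest count of any member in any library was 28, above the floor of 3 counts. The minimum average of 5 CPM largely keeps lower counts out, so nothing is read from that. A member could also pass this minimum through TetR-Mit1, where it is high. The count of 28 is that of wtf18 in K587A replicate 3, a gene under 5 CPM in every clr4oe and K587A library.

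**Figure D1:**
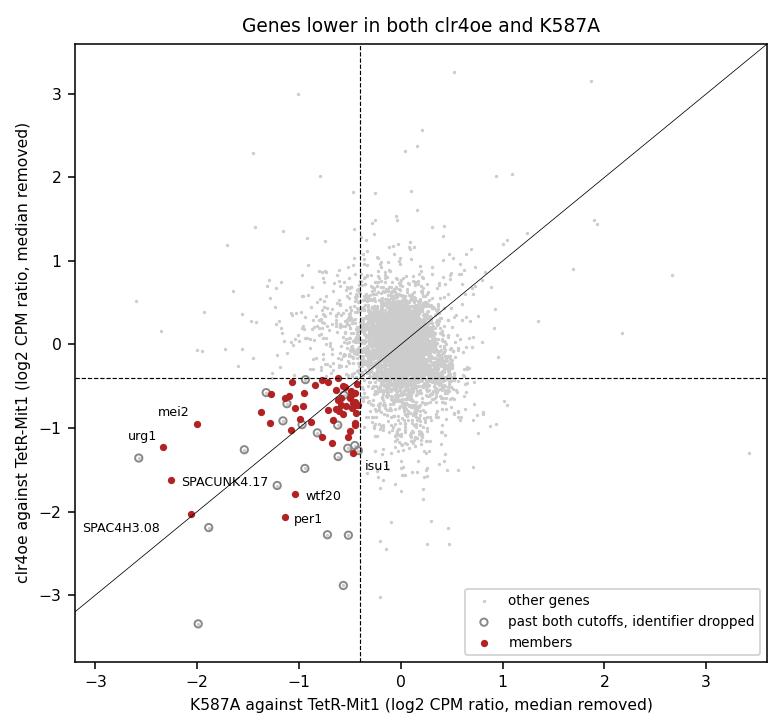
Log2 ratio of mean CPM over TetR-Mit1, with the median of all genes removed, for K587A (x axis) and clr4oe (y axis). Each point is a gene, dashed lines are the cutoffs of -0.4, open circles are genes past both cutoffs with dropped identifiers, and the diagonal marks equal ratios. The 53 members (red) lie on both sides of the diagonal, 31 with the lower ratio in clr4oe and 22 with the lower ratio in K587A.

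The fall shared by both genotypes was shallow for most members. In 6 genes both ratios were -1 or lower, that is, at least 2-fold: SPAC4H3.08, SPACUNK4.17, urg1, per1, wtf20 and map1. Just inside the cutoff were SPAC1399.06 (ratios of -0.48 in clr4oe and -0.43 in K587A), mug5 (-0.72 in clr4oe and -0.42 in K587A) and ups2 (-0.41 in clr4oe and -0.61 in K587A). Just outside were the phosphate transporter gene pho841 (-0.396 in clr4oe, -1.26 in K587A), mic26 (-0.394 and -0.439) and rti1 (-0.511 and -0.379). The members nearest the cutoff and the genes just past it differ by a few hundredths. The median coefficient of variation between libraries was 5.61% in clr4oe (2 libraries), 5.73% in K587A and 4.39% in TetR-Mit1. The rule required falls past the cutoff, so nothing is read from the size of this spread beside the falls. The widest spread was that of mei4 in clr4oe (24.2%) and in K587A (22.0%).

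Of the members, 14 overlap another gene of the table. Most members also overlap annotated genes that do not encode proteins, such as 3 at mei2 and 2 at ssm4. Counts of members outside the 14 can therefore be uncertain too. Besides the cases named with their values, these are erg32 with mis19, nce103 with mug45, pof15 with SPAPB1A10.13, sqt1 with emc1, mug5 with agn1, SPBP8B7.32 with pop7 and rad50 with emc5, and without a stated strand setting their counts are uncertain.

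**Figure D2:**
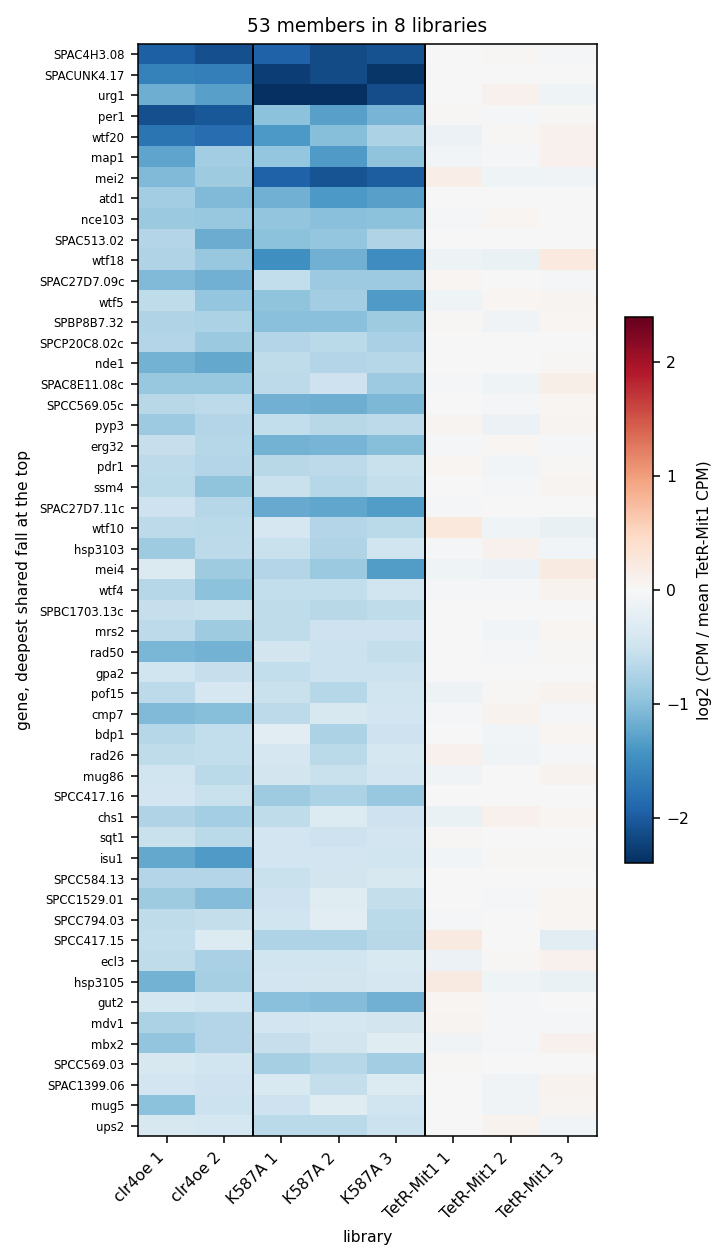
Log2 of each library's TMM-normalised CPM over the TetR-Mit1 mean, for the 53 members (rows, ordered by the smaller of their 2 falls) in the 8 libraries (columns). All 5 clr4oe and K587A columns are blue in every row, and which of these genotypes is darker changes from gene to gene.

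Metabolic enzymes formed the biggest set by annotation, with 11 members. The gene with the deepest shared fall was SPAC4H3.08, annotated as a 3-hydroxyacyl-CoA dehydrogenase. It had 32.1 and 28.7 CPM in clr4oe, 32.6, 28.1 and 29.1 CPM in K587A and 125, 126 and 122 CPM in TetR-Mit1, which leaves 24.4% of the TetR-Mit1 mean in clr4oe and 24% in K587A. The clr4oe and K587A libraries overlapped in this gene (log2 0.02 ± 0.08 SE, edgeR adjusted p = 0.824 for clr4oe over K587A). SPACUNK4.17, annotated as an NAD-binding dehydrogenase, had 102 and 101 CPM in clr4oe, 65, 70.6 and 61.8 CPM in K587A and 310.1, 316 and 312 CPM in TetR-Mit1. Here K587A was the lowest genotype, with no overlap among the groups (log2 0.61 ± 0.05 SE, edgeR adjusted p = 8.70e-11).

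The gene urg1 encodes a protein annotated as GTP cyclohydrolase II, and its promoter is known for induction by uracil. Its values were 22.9 and 20.8 CPM in clr4oe, 9.38, 9.64 and 11.7 CPM in K587A and 51.8, 54.9 and 47.6 CPM in TetR-Mit1. K587A libraries were the lowest and clr4oe libraries lay between the other groups, at 2.16-fold the K587A level (log2 1.11 ± 0.12 SE, edgeR adjusted p = 5.95e-09). The aldehyde dehydrogenase gene atd1 had 642 and 549 CPM in clr4oe, 514, 439.5 and 462 CPM in K587A and 1149.6, 1129 and 1148 CPM in TetR-Mit1, and it too was lowest in K587A (log2 0.34 ± 0.06 SE, edgeR adjusted p = 7.85e-06). It overlaps rad26, another member, so the counts of both are uncertain.

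The dehydrogenase genes nde1 and gut2 differed in opposite directions between the tested genotypes. The external NADH dehydrogenase gene nde1 had 428 and 402 CPM in clr4oe, 622, 576 and 585 CPM in K587A and 936, 935 and 962 CPM in TetR-Mit1, with clr4oe lowest (log2 -0.52 ± 0.04 SE, edgeR adjusted p = 4.44e-11). For gut2, the FAD-linked glycerol-3-phosphate dehydrogenase that passes electrons from glycerol 3-phosphate into the respiratory chain, the values were 524 and 501 CPM in clr4oe, 347, 338 and 316 CPM in K587A and 718, 678 and 699 CPM in TetR-Mit1. In that gene K587A was lowest and the groups did not overlap (log2 0.62 ± 0.04 SE, edgeR adjusted p = 1.61e-12). SPCC417.16, annotated as an NADH:ubiquinone reductase complex subunit, was also lower in K587A than in clr4oe (log2 0.35 ± 0.04 SE, edgeR adjusted p = 7.29e-08); it overlaps the member SPCC417.15, so both counts are uncertain.

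The carbonic anhydrase gene nce103 was at nearly the same level in both genotypes, at 53.6% of the TetR-Mit1 mean in clr4oe and 50.7% in K587A. The difference of clr4oe from K587A did not pass the threshold (log2 0.08 ± 0.04 SE, edgeR adjusted p = 0.0979). Nor did that of SPAC513.02, of the phosphoglycerate mutase family (log2 -0.04 ± 0.14 SE, edgeR adjusted p = 0.809). The sterol C-5 desaturase gene erg32, which acts late in ergosterol synthesis, had 81.7 and 74.4 CPM in clr4oe, 54.6, 55.6 and 59.3 CPM in K587A and 118, 124 and 118 CPM in TetR-Mit1, lowest in K587A (log2 0.47 ± 0.06 SE, edgeR adjusted p = 1.78e-07). The chitin synthase gene chs1 was the remaining enzyme, at 58.9% of the TetR-Mit1 mean in clr4oe and 72% in K587A. It was called lower in clr4oe (log2 -0.29 ± 0.11 SE, edgeR adjusted p = 0.0216), but not without K587A replicate 2 (adjusted p = 0.12) or clr4oe replicate 2 (0.165).

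Membrane transporters made up 9 members. The amino acid permease gene per1 had 18.1 and 19 CPM in clr4oe, 39.3, 31.6 and 35.9 CPM in K587A and 79.3, 75.3 and 79.6 CPM in TetR-Mit1. In contrast to urg1 and gut2, clr4oe was the lowest genotype and K587A lay between (log2 -0.94 ± 0.10 SE, edgeR adjusted p = 3.18e-09, the most negative value among the members). SPCC569.05c, annotated as a spermidine family transporter, had 195 and 198 CPM in clr4oe, 139, 136 and 147 CPM in K587A and 305, 303 and 316 CPM in TetR-Mit1, lowest in K587A (log2 0.48 ± 0.04 SE, edgeR adjusted p = 2.01e-10). It overlaps SPCC569.04, so its counts are uncertain. SPCC1529.01, annotated only as a transporter, was at 52% of the TetR-Mit1 mean in clr4oe and 73.4% in K587A and was called lower in clr4oe than in K587A (log2 -0.50 ± 0.08 SE, edgeR adjusted p = 1.02e-05). The polyamine transporter gene SPCC584.13 was also lower in clr4oe (log2 -0.24 ± 0.07 SE, edgeR adjusted p = 0.00222). For the other 5, which are pdr1 (an ABC transporter), SPBC1703.13c (inorganic phosphate), mrs2 (magnesium), mug86 (acetate) and SPCC794.03 (thiamine), the genotypes were not separated by the test, with adjusted p-values in edgeR from 0.0599 to 0.499.

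Regulators and effectors of sexual differentiation made up 6 members. The RNA-binding protein Mei2 switches cells from mitosis to meiosis, and its gene had 36 and 41.2 CPM in clr4oe, 19.4, 17.8 and 19.1 CPM in K587A and 83.7, 70 and 70.8 CPM in TetR-Mit1. K587A libraries were lowest and clr4oe libraries lay at about 2-fold their level (log2 1.04 ± 0.10 SE, edgeR adjusted p = 6.69e-10). The gene map1 encodes a MADS-box factor needed for transcription in cells of the P mating type. It had 7.44 and 10.1 CPM in clr4oe, 9.45, 6.95 and 9.17 CPM in K587A and 17.2, 17.3 and 19.2 CPM in TetR-Mit1, with the clr4oe and K587A libraries mixed (log2 0.05 ± 0.17 SE, edgeR adjusted p = 0.801). Markers of mating-type cells are given beside map1. The summed level of the 4 P cell markers was 774 and 785 CPM in clr4oe, 621 to 641 CPM in K587A and 614 to 636 CPM in TetR-Mit1. Most of that sum was sxa1, with a mean of 648 ± 8.56 CPM in clr4oe (SD, n = 2), 501 ± 6.81 CPM in K587A and 499 ± 13.2 CPM in TetR-Mit1 (SD, n = 3 each). The receptor gene map3 had 78.3 ± 3.10 CPM in clr4oe (SD, n = 2), 96.4 ± 7.73 CPM in K587A and 79 ± 4.58 CPM in TetR-Mit1 (SD, n = 3 each), and map2, which encodes the P pheromone, had 1.37 ± 0.28 CPM in clr4oe (SD, n = 2), 1.35 ± 0.27 CPM in K587A and 1.71 ± 0.75 CPM in TetR-Mit1 (SD, n = 3 each). The remaining P cell marker, map4, had 51.6 ± 2.83 CPM in clr4oe (SD, n = 2). It had 35.0 ± 2.3 CPM in K587A and 42.4 ± 1.98 CPM in TetR-Mit1 (SD, n = 3 each). Thus map4 was highest in clr4oe, whereas map3 was highest in K587A. The summed level of the 7 M cell markers was 248 and 250.1 CPM in clr4oe, 211 to 216 CPM in K587A and 224 to 234 CPM in TetR-Mit1. No marker was at 0 counts in any library. The part of mating-type composition in the map1 values was not tested.

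The forkhead factor Mei4 drives transcription in mid-meiosis, and its gene had 9.10 and 6.44 CPM in clr4oe, 7.19, 6.30 and 4.59 CPM in K587A and 10.9, 10.5 and 13.5 CPM in TetR-Mit1. Ssm4, a dynactin subunit used in meiotic nuclear movement, had 9.85 and 7.87 CPM in clr4oe, 10.6, 9.51 and 10.4 CPM in K587A and 15.2, 14.8 and 16.1 CPM in TetR-Mit1. The clr4oe and K587A libraries overlapped in both genes, and neither difference passed the threshold (edgeR adjusted p = 0.135 for mei4 and 0.249 for ssm4). Because mei4 overlaps cdk9, its counts are uncertain. The G protein alpha subunit gene gpa2, of the glucose-sensing cAMP pathway, was at 69.9% of the TetR-Mit1 mean in clr4oe and 68.8% in K587A, and mug5 was at 60.5% of the TetR-Mit1 mean in clr4oe and 74.8% in K587A.

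Of the wtf family, 5 genes were members. This multicopy family of fission yeast includes meiotic drivers that encode poison and antidote proteins acting on spores. Of the members, wtf4 is annotated as a meiotic drive antidote. The annotation of wtf5, wtf10, wtf18 and wtf20 is antidote-like meiotic drive suppressor. The similarity of wtf genes makes the division of reads among copies uncertain. Wtf20 had 3.65 and 3.44 CPM in clr4oe, 4.72, 6.04 and 7.23 CPM in K587A and 11.1, 12.4 and 13.2 CPM in TetR-Mit1, with clr4oe lowest (log2 -0.73 ± 0.22 SE, edgeR adjusted p = 0.00442). In wtf18 the order was the opposite, at 4.89 and 4.29 CPM in clr4oe, 2.88, 3.61 and 2.85 CPM in K587A and 7.37, 7.20 and 9.50 CPM in TetR-Mit1 (log2 0.55 ± 0.23 SE, edgeR adjusted p = 0.0406). The call for wtf18 was lost when clr4oe replicate 1 (adjusted p = 0.19), K587A replicate 1 (0.11) or K587A replicate 3 (0.0883) was left out, and with upper-quartile scaling (0.0664). The 3 others, wtf4, wtf5 and wtf10, were at 56.2% to 64.2% of the TetR-Mit1 mean in clr4oe and at 48.8% to 67.9% in K587A, and clr4oe and K587A were not separated (edgeR adjusted p = 0.108 to 0.715).

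The other wtf genes were then examined, since the family was a list of its own. Of all 15 wtf genes tested, 10 were lower and 1 higher in clr4oe than in TetR-Mit1 (33.0% of all tested genes were lower and 32.1% higher), with a median log2 fold change of -0.64 against -0.003 for all genes. In K587A 12 were lower and 0 higher (25.0% and 27.3% of all genes), with a median of -0.57 against 0.006. These counts include the 5 members, which were chosen to be low. Among the 10 others, 5 were lower in clr4oe and 7 in K587A, but only wtf19 and wtf21 in both. For example, wtf7 had 16.3 and 17.8 CPM in clr4oe, 32.7, 37.1 and 36.2 CPM in K587A and 35.1, 36 and 38.3 CPM in TetR-Mit1, so its K587A and TetR-Mit1 libraries overlapped and only clr4oe stood lower. The gene wtf14 had 85.4 and 88 CPM in clr4oe, 51.4, 50.7 and 49 CPM in K587A and 70.3, 73.1 and 69.3 CPM in TetR-Mit1, lowest in K587A and highest in clr4oe.

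**Figure D3:**
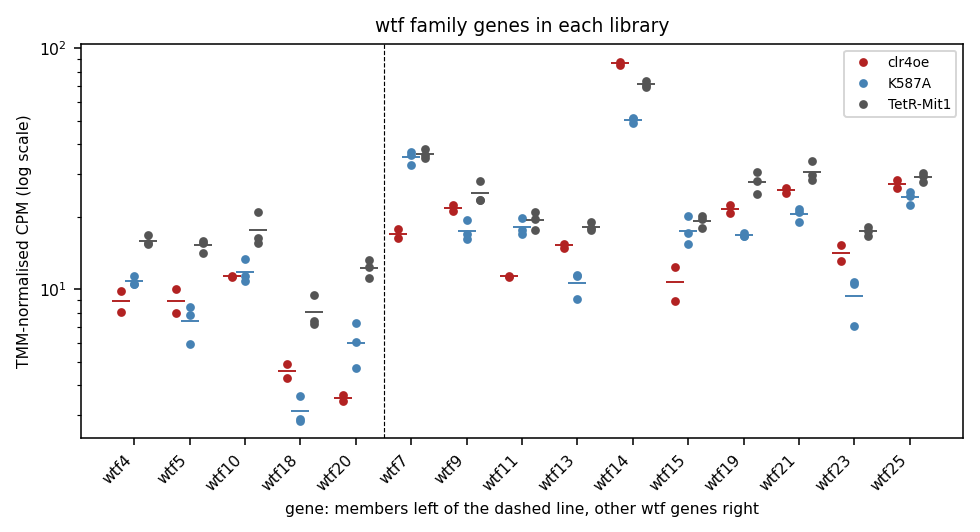
TMM-normalised CPM (log axis) of the 15 wtf genes in each library; points are libraries and dashes group means, for clr4oe, K587A and TetR-Mit1 from left to right. In the 5 members both genotypes lie under TetR-Mit1, whereas wtf7, wtf11 and wtf15 are low in clr4oe alone by the test.

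The 6 members grouped as DNA repair and checkpoint or as organelle genes included isu1. It encodes the scaffold on which iron-sulfur clusters are assembled, and it had 154 and 141 CPM in clr4oe, 264, 265 and 261 CPM in K587A and 345, 371 and 371 CPM in TetR-Mit1, with clr4oe lowest and no overlap among the groups (log2 -0.84 ± 0.05 SE, edgeR adjusted p = 1.79e-14). It overlaps rna4. The DNA repair gene rad50, of the MRN complex that acts at double-strand breaks, had 31.4 and 30.8 CPM in clr4oe, 49.7, 47.4 and 45.1 CPM in K587A and 67.5, 66 and 68.5 CPM in TetR-Mit1, again with clr4oe lowest (log2 -0.61 ± 0.07 SE, edgeR adjusted p = 6.13e-08). Cmp7, an ESCRT-III protein, had 8.54 and 8.73 CPM in clr4oe, 11.5, 13.5 and 12.9 CPM in K587A and 17.1, 18.8 and 17.3 CPM in TetR-Mit1 (log2 -0.55 ± 0.14 SE, edgeR adjusted p = 0.00115). The genes mdv1, annotated as Caf4/Mdv1, and ups2, for a phosphatidic acid transfer protein, went opposite ways, with mdv1 lower in clr4oe than in K587A (log2 -0.29 ± 0.06 SE, edgeR adjusted p = 1.66e-04) and ups2 higher (log2 0.20 ± 0.06 SE, edgeR adjusted p = 0.00321). For rad26, the partner of the checkpoint kinase Rad3, the clr4oe and K587A libraries overlapped (log2 -0.11 ± 0.07 SE, edgeR adjusted p = 0.133).

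A pair of But2 family genes, SPAC27D7.09c and SPAC27D7.11c, lie next to each other and moved unequally. SPAC27D7.09c had 23.5 and 22.2 CPM in clr4oe, 32.7, 27 and 26.9 CPM in K587A and 50.6, 49.2 and 47.7 CPM in TetR-Mit1, lowest in clr4oe (log2 -0.34 ± 0.10 SE, edgeR adjusted p = 0.00294). SPAC27D7.11c had 248 and 219.6 CPM in clr4oe, 152, 148 and 139.9 CPM in K587A and 346, 355 and 356 CPM in TetR-Mit1, lowest in K587A (log2 0.67 ± 0.05 SE, edgeR adjusted p = 3.17e-12). The 5 members that act in signalling or transcription, namely the tyrosine phosphatase gene pyp3, the MADS-box factor gene mbx2, the TFIIIB subunit gene bdp1, the F-box gene pof15 and ecl3, kept 56.6% to 70.5% of the TetR-Mit1 mean in clr4oe and 64.7% to 74.2% in K587A. Mbx2 and ecl3 were called lower in clr4oe than in K587A, but ecl3 was not called without clr4oe replicate 2 (adjusted p = 0.217). Hsp3105, annotated as a glyoxylase III, had 4.75 and 6.01 CPM in clr4oe, 7.60, 7.68 and 7.95 CPM in K587A and 12.2, 9.82 and 9.43 CPM in TetR-Mit1; its lower value in clr4oe (log2 -0.52 ± 0.19 SE, edgeR adjusted p = 0.0149) was not called without clr4oe replicate 1 (adjusted p = 0.161). Sqt1 was called lower in clr4oe (log2 -0.12 ± 0.04 SE, edgeR adjusted p = 0.0182), but not without clr4oe replicate 2 (adjusted p = 0.418) or in DESeq2 (0.064). The related gene hsp3103 and the ribosome biogenesis gene sqt1 were at 60.3% and 66.4% in clr4oe and at 67.1% and 72.3% in K587A. The 6 uncharacterized members kept 53.2% to 74.2% in clr4oe and 51.6% to 74.7% in K587A, and SPBP8B7.32 and SPCC569.03 were called higher in clr4oe than in K587A.

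The direct comparison of clr4oe with K587A set no cutoff in the selection, although the selection used the same clr4oe and K587A libraries. The TetR-Mit1 libraries enter this comparison through the gene filter, the scaling and the shared estimate of spread. Both genotypes having to be low also limits how far they can differ. Of the 53 members 28 (52.8%) passed an edgeR adjusted p of 0.05, where 71.7% of all 4887 tested genes did. By direction, 13 members (24.5%) were higher in clr4oe and 15 (28.3%) lower, against 35.4% and 36.4% of all genes. Both shares are below those of all genes, a difference that was not tested. The median absolute log2 fold change was 0.263 in the members and 0.28 in all genes. At least 2-fold differences were called for 2 members, urg1 and mei2, both higher in clr4oe (3.68% of all genes), and for 0 members lower in clr4oe (4.11% of all genes). Without regard to the test, the clr4oe libraries lay wholly above the K587A libraries in 16 members (38.7% of all genes) and wholly below in 20 (40.5%), so 36 did not overlap, where 79.2% of all genes did not.

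**Figure D4:**
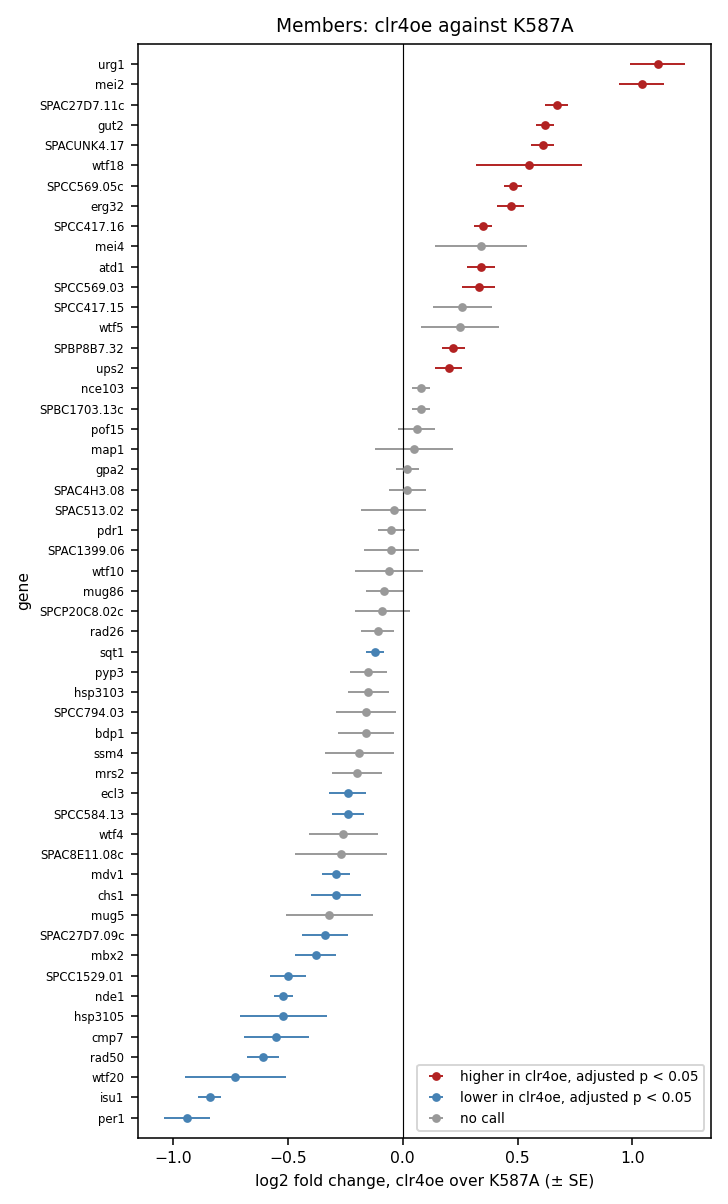
Log2 fold change of clr4oe over K587A with its standard error for the 53 members, sorted. Urg1 (1.11) and mei2 (1.04) are at one end, per1 (-0.94) and isu1 (-0.84) at the other, and 25 members (grey) were not called.

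Of the 11 metabolic enzymes, 6 were higher in clr4oe, 2 lower and 3 not called. Of the 9 transporters, 1 was higher, 3 lower and 5 not called. Of the 6 genes of sexual differentiation, mei2 was higher and the 5 others were not called. Set beside the 35.4% higher and 36.4% lower of all genes, no direction of a group is read from these counts, which rest on few genes, on groupings made after the values were known and, for chs1 among the enzymes, on a call that single libraries decide. For the 25 members with no call the standard errors ran up to 0.2, so moderate differences can go undetected in the low ones: the log2 fold change was 0.34 ± 0.20 SE for mei4 and -0.32 ± 0.19 SE for mug5.

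Further genes of the members' pathways were taken from 22 lists. Members occurred in 6 lists, the wtf family among them, and the counts below include members, which were chosen to be low. Of all tested genes 33.0% were lower and 32.1% higher in clr4oe (median log2 fold change -0.003), and 25.0% were lower and 27.3% higher in K587A (median 0.006); no list was tested against these shares. Of 10 meiotic genes removed by Mmi1, mei4 and ssm4 alone were lower in clr4oe while 4 others were higher (median log2 0.33). These 6 calls in clr4oe became 3 without clr4oe replicate 2. In K587A the same 2 were lower and 0 were higher (median -0.13). Rec10, of the meiotic chromosome axis, had 20 and 19.5 CPM in clr4oe, 9.79, 11.8 and 9.27 CPM in K587A and 11.3, 11.2 and 11.8 CPM in TetR-Mit1, so it was highest in clr4oe, and the K587A and TetR-Mit1 libraries lay close together. The summed level of the 10 genes was 146.6 and 150.0 CPM in clr4oe, 106 to 121 CPM in K587A and 128 to 129 CPM in TetR-Mit1, and none was at 0 counts.

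Nitrogen-starvation genes, with the members mei2 and per1, held 5 lower and 6 higher of 12 in clr4oe (median 0.15), and 9 lower and 1 higher in K587A (median -0.84). The transcription factor gene ste11, whose product activates mei2, had 138 and 138 CPM in clr4oe, 79.8, 63.5 and 76.7 CPM in K587A and 161, 175 and 191 CPM in TetR-Mit1. It was lower in both genotypes (log2 -0.35 ± 0.07 SE in clr4oe and log2 -1.27 ± 0.07 SE in K587A) but stayed above the cutoff in clr4oe. The vacuolar protease gene isp6 had 487 and 471 CPM in clr4oe, 169, 152 and 146 CPM in K587A and 255, 257 and 267 CPM in TetR-Mit1, highest in clr4oe and lowest in K587A. Among 11 genes of pheromone signalling, map1 was the member, 4 were lower and 4 higher in clr4oe (median -0.08), and 7 were lower and 0 higher in K587A (median -0.23). The 4 of 11 lower in clr4oe are at about the share of all genes.

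Glucose-repressed and glycerol genes, with gut2 as the member, showed 3 lower and 9 higher of 15 in clr4oe (median 0.20), and 14 lower and 1 higher in K587A (median -0.46). The other 2 that were lower in clr4oe, dak2 and the hexose transporter gene ght3, met both cutoffs but carry dropped identifiers. The dihydroxyacetone kinase gene dak1 had 998 and 964 CPM in clr4oe, 451, 465 and 458 CPM in K587A and 968, 918 and 931 CPM in TetR-Mit1, with clr4oe and TetR-Mit1 close and K587A below both. Of 9 sterol genes, erg32 was the member and the only one lower in clr4oe, where 7 were higher (median 1.0). In K587A 3 were lower and 3 higher (median -0.03), near the shares of all genes. The other C-5 desaturase gene, erg31, had 604 and 618 CPM in clr4oe, 218, 228 and 233 CPM in K587A and 206, 194 and 203 CPM in TetR-Mit1, about 3 times the TetR-Mit1 level in clr4oe, where erg32 was lower. The other 16 lists held no member. In one of them, 119 of 131 cytosolic ribosomal protein genes were lower and 1 higher in clr4oe than in TetR-Mit1, and all 131 were higher in K587A; the part of this shift in the members' values was not tested.

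By chromosome, 27 members were on I (50.9%), 11 on II (20.8%) and 15 on III (28.3%). Of the table's genes without a dropped prefix, 45% were on I, 36.9% on II and 18.1% on III. The rule itself shapes these counts, since of the 21 genes dropped after meeting both cutoffs 12 were on I, 8 on II and 1 on III. The 5 wtf members are all on chromosome III. All of the outermost 10 genes at each end of chromosomes I and II carry dropped prefixes, and none at the ends of III does, so members at chromosome ends could come from III alone. The 3 found there are a description: SPCP20C8.02c has 1 gene of the table between it and one end, and SPCC569.03 and SPCC569.05c have 2 and 4 genes between them and the other end. Positions are in gene order only, from the RefSeq annotation of ASM294v3, since the submitters' processing notes name another build.

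Several members were neighbours. In gene order there were 5 pairs of adjacent members, and 22 members fell into 9 stretches in which each was at most 5 places from the next. Among the adjacent pairs, rad26 overlaps atd1 and SPCC417.15 overlaps SPCC417.16, so their counts are uncertain. Such shares were not computed for genes in general, so nothing is read from these counts. In the stretch from wtf4 to SPCC794.03, 4 of 9 genes were members, and none of the 5 others was called lower in both genotypes. Of these, ght1 (log2 0.28 in clr4oe and -1.18 in K587A) and gcd1 (0.20 and -0.84) were lower in K587A and higher in clr4oe. In the stretch from urg1 to SPAC1399.06, the non-member fur4, the uracil transporter gene, was lower in both (-0.31 in clr4oe, edgeR adjusted p = 2.15e-06, and -0.66 in K587A, adjusted p = 1.52e-12). Between mbx2 and nce103, 3 of 7 genes were members, and the non-member rpl402, a ribosomal protein gene, was lower in clr4oe (log2 -0.51) and higher in K587A (log2 0.50). Between per1 and rad50 lies emc5, which overlaps rad50 and was lower in clr4oe (log2 -1.56, edgeR adjusted p = 1.36e-12), whereas its value in K587A was 0.04 (adjusted p = 0.672). The gene but1, between SPAC27D7.11c and ssm4, had -1.03 in clr4oe (adjusted p = 5.53e-07) and -0.17 in K587A (adjusted p = 0.22). All tested genes in the per1 and SPAC27D7.09c stretches were lower in clr4oe, and the non-members were not called in K587A.

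**Figure D5:**
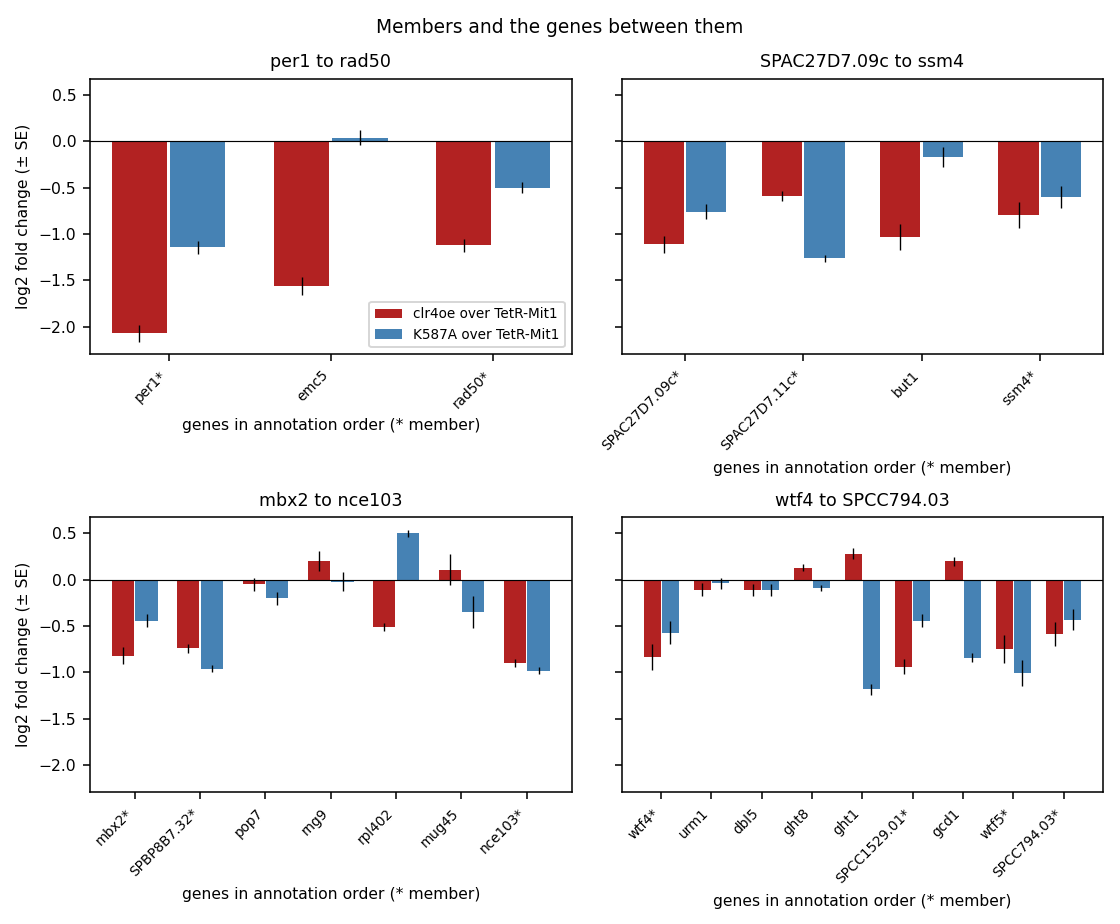
Log2 fold change over TetR-Mit1 with its standard error for clr4oe (red, left bar) and K587A (blue, right bar), in 4 stretches of genes in annotation order; asterisks mark members. In the per1 and SPAC27D7.09c stretches the genes between members are lower in clr4oe (-1.56 and -1.03), and in the other 2 stretches none is called lower in both genotypes, though ght1 (-1.18) and gcd1 (-0.84) are lower in K587A.

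Genes directly beside a member, but not members themselves, numbered 92, of which 10 overlap the member next to them. Among the other 82, 23 (28.0%) were lower in clr4oe, against 33.0% of all genes, and 33 (40.2%) were lower in K587A, against 25.0%. Lower in both were 8 (9.76%), against 7.12% of all genes. Their median log2 fold change was 0.02 in clr4oe and -0.03 in K587A, close to the -0.003 and 0.006 of all genes. None of these shares was tested against that of all genes.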

How the data were processed

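The authors deposited read counts per gene for 8 libraries, as raw whole numbers; per the file headers, column names end like STAR's gene count output. The submitters' processing notes name STAR, SAMtools, DESeq2 and the build ASM294v2; annotation, strand setting and filters are not given in the sources used here, so overlapping and near-identical genes are uncertain. Symbols, products and gene order came from RefSeq ASM294v3 (4906 identifiers matched, 9 did not). Because that build differs, coordinates served only for gene order and overlaps. No sequences, lengths or promoter motifs were used, although sequence features had been planned.

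The members and lists were chosen with earlier results of these data known, and the grouping by role after the values were seen. Genes kept by filterByExpr (4887) were tested with edgeR 4.0.16 in R 4.3.3: TMM scaling, 1 quasi-likelihood fit of all libraries with genotype as the factor, Benjamini-Hochberg adjustment over all tested genes, threshold 0.05. The standard error is the absolute log2 fold change divided by the square root of F. Simulated data for clr4oe against K587A held 4882 tested genes, 200 of them changed 2-fold. The test found 198 of these and also called 10 that had been left alone. Among the real libraries 71.7% of genes were called in this comparison, with a median absolute log2 fold change of 0.28. Changes so many and mostly so small were not simulated, so nothing is read from the simulation about errors in these data. The floor of 3 counts is 0.188 to 0.289 CPM and covers counting error only. Named members were the 20 with the deepest shared fall, those in lists, up to 8 called in each direction between clr4oe and K587A, and 3 on each side of the cutoff; other genes were chosen after their values were seen. Alternatives included DESeq2 1.42.0, other scalings, other filters, leaving out each library and a block for the replicate number.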

Additional observations from a re-analysis of the deposited data

How the results depend on the processing

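The size of the group follows its cutoff: 99 genes entered at 0.3 and 32 at 0.5 in place of 0.4. With TMM scaling of the rule all 53 stayed. The rule subtracts the median ratio, which cancels most of any rescaling, so nothing is read from that. With single libraries left out 53 to 57 genes entered, 39 of the 53 in every such set. Of the 28 members called between clr4oe and K587A, 23 stayed called under every alternative; the calls of wtf18, chs1, sqt1, ecl3 and hsp3105 were lost under at least 1, and no called direction reversed. Of the 25 members with no call, 15 had none under any alternative. Leaving out single libraries gave 27 to 30 calls, 12 to 14 higher and 13 to 17 lower in clr4oe. Removing a clr4oe library leaves 1, which is then assumed to vary like the other groups. Upper-quartile scaling gave 12 higher and 20 lower, and DESeq2 14 of each. Of the calls counted in gene lists, that of the Mmi1 targets in clr4oe against TetR-Mit1 was 6, and 3 without clr4oe replicate 2. Over all genes the calls with a library left out ran from 3163 to 3498 between clr4oe and K587A, from 2795 to 3214 between clr4oe and TetR-Mit1, and from 2269 to 2577 between K587A and TetR-Mit1. With the replicate number as a block, 28 members were called, the same count as without it. Same-numbered libraries did not all deviate together (correlations from -0.118 to 0.113 over 7 pairs), and the numbers were not taken as pairs. Deviations were taken from group means, so those of the 2 clr4oe libraries mirror each other. The 7 pairs are therefore not independent, and the check cannot decide whether libraries were paired. Counts of members with few reads limit what could be separated between clr4oe and K587A.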
